A study of Mus musculus with 8 samples.

Results

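The genes described here are 34 genes of the G1/S transition and of DNA replication, a list of named genes taken from the machinery that copies DNA, out of 53465 gene identifiers measured by RNA sequencing in mouse Treg cells. They comprise 10 genes of the pre-replication complex and its licensing (Orc1, Orc6, Cdc6, Cdt1 and Mcm2 to Mcm7), 4 genes that activate the replicative helicase (Mcm10, Cdc45, Gins1 and Gins2), 4 polymerase and primase genes (Pola1, Pold1, Pole and Prim1), 6 genes of the sliding clamp, its loader and the lagging strand (Pcna, Rfc3, Rfc4, Rfc5, Fen1 and Lig1), 4 genes of nucleotide supply (Rrm1, Rrm2, Tyms and Tk1), 4 cyclin E and E2F genes (Ccne1, Ccne2, E2f1 and E2f2) and 2 genes of chromatin assembly (Chaf1a and Chaf1b). All 34 were matched by identifier and symbol and had reads in all 8 libraries. Some of them, Mcm4, Mcm7 and Rfc4 among them, are also among the proliferation genes that the study displayed from these libraries, so their direction is not independent evidence.

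In a resting cell most of these genes are expressed at a low level. Mitogenic signals raise cyclin D and cyclin E kinase activity, the pocket proteins are phosphorylated, and the E2F factors they held back then drive the transcription of the G1/S genes in a wave that precedes DNA synthesis. The origin recognition complex (ORC) with CDC6 and CDT1 loads the MCM2-7 hexamer onto DNA in G1, the hexamer is turned into the active helicase with CDC45 and GINS, and the polymerases follow with the clamp PCNA, which the RFC loader places on DNA. Treg cells, the CD4+ Foxp3+ cells that restrain immune responses, divide in the periphery to a degree that varies with activation and inflammation, and a dividing minority can set the level of such genes in a bulk library.

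Treg cells were sorted from spleen and lymph nodes of C57BL/6 mice aged 3 to 4 weeks, all carrying R26 CAG-FlpoER, a ubiquitous tamoxifen-dependent FLP recombinase, and each of the 8 conditions was a single library from 0.1 M cells. The total Treg experiment had 6 libraries. WT cells were Brg1 F/+ Foxp3 YFP-Cre/+ and so heterozygous for Brg1 (Smarca4), the ATPase of the BAF chromatin remodelling complex. Mosaic females with Brg1 F/ΔR gave a Brg1-sufficient subset (Foxp3+/+) and a Brg1-deleted subset (Foxp3 YFP-Cre). In rKO1 mice (labelled Brg1 F/ΔR Foxp3 YFP-Cre/YFP-Cre), which are inflamed, Brg1 was deleted in all Treg cells, and tamoxifen (TAM) restored it in those that lost the GFP-marked gene trap of the ΔR allele: 1 library came from untreated mice, and a GFP+ Brg1-deleted and a GFP- Brg1-reexpressed library (genotype labelled F/+) were taken on Day 7 after TAM. The aTreg experiment (CD44hi CD62Llo) had 2 libraries, labelled as from TAM-treated rKO1 mice (also Day 7). Their labels were Brg1-deleted (genotype labelled F/F) and Brg1-reexpressed (labelled F/+), and the header of the first names it WT. Cre was driven by the Foxp3 locus on the X chromosome, and the number of animals behind each library was not given in the sources used here.

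With 1 library per condition, no difference between conditions had a replicate check, and no p-value was computed. Levels are given as TMM-scaled FPKM, the deposited values per exon length and sequencing depth rescaled so that the bulk of genes matched between the libraries of an experiment, which can be compared between genes as well as between libraries. Folds are given with an exact 95% interval of the recovered reads, which covers counting error only. A gene was counted as tested with at least 5 CPM (reads scaled to library size) in either library and as called with a difference of at least 2-fold. Recovered reads on genes ranged from 16287526 to 24039692 in the total Treg libraries and were 17430124 and 19968342 in the aTreg libraries, and single members had between 9 and 7554 reads. In bulk samples, more cells in cycle and more RNA per cell cannot be told apart.

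Smarca4, the targeted gene, was a limited check of the labels, since its values cover the whole gene and not the floxed exons alone, and the ΔR allele is still transcribed up to its gene trap. It stood at 13.6 TMM-scaled FPKM in WT, 11.9 and 7.29 in the mosaic Brg1-sufficient and Brg1-deleted libraries, 6.81 in untreated rKO1, and 5.58 and 8.97 in the GFP+ and GFP- libraries after TAM, in the order the labels call for. Between the aTreg libraries it went against them, with 11.0 in the library labelled Brg1-deleted and 9.18 in that labelled Brg1-reexpressed. Since the header of the first names it WT, whether this pair compares Brg1-deleted with Brg1-reexpressed cells is uncertain. Of the other measures that set libraries apart, the summed level of 4 Y-linked genes was 0 in WT and both mosaic libraries and between 14.8 and 42.6 in the 5 rKO1 libraries, so that sex was not matched between rKO1 and the other libraries. Xist was near 0 (0.0292) in untreated rKO1 alone. Since Foxp3 is X-linked, YFP-Cre/YFP-Cre is a female genotype, so Y-linked reads in all 5 rKO1 libraries, and the near absence of Xist from the untreated one, do not match that label. The paper describes rKO1 mice of both sexes, the males being Foxp3 YFP-Cre and the females YFP-Cre/YFP-Cre. The aTreg libraries also differed from each other, the Y-linked sum being 32.7 in the library labelled Brg1-deleted and 14.8 in that labelled Brg1-reexpressed, and Xist 0.684 and 2.36.

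The promoters of these genes are shown first, since E2F sites are the feature that G1/S genes are known to share. The RefSeq windows (GRCm38.p6, from 250 bases before to 50 bases after an annotated start, on the strand of the gene) covered 29 of the 34 members with 34 windows, and no window was matched for Mcm4, Gins1, Gins2, Pole and Ccne2. The letters TTCCCGC were used as an E2F match, as were the variant TTGGCGC, the variant TTCGCGC and also the variant TTGCCGC, all read on both strands, and matches are in capitals. The windows printed are those of the 2 members with the largest and the 2 with the smallest difference between the GFP- and GFP+ libraries that had a window, and that of Mcm6, added after its values were seen because it held the most matches. Each comes with its position.
Rrm2 (chr12:24708004-24708303, plus strand): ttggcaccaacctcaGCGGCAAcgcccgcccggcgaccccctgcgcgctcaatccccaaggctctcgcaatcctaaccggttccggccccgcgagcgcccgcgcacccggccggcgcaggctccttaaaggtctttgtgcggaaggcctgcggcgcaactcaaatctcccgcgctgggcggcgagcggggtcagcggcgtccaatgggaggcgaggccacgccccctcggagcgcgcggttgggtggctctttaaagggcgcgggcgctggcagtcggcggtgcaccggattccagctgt
Tk1 (chr11:117825965-117826264, minus strand): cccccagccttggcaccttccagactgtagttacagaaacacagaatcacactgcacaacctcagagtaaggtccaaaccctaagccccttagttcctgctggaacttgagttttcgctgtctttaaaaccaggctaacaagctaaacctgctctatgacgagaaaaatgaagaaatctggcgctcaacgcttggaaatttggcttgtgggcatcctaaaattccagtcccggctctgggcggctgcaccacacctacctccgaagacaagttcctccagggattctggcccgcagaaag
Pold1 (chr7:44548766-44549065, minus strand): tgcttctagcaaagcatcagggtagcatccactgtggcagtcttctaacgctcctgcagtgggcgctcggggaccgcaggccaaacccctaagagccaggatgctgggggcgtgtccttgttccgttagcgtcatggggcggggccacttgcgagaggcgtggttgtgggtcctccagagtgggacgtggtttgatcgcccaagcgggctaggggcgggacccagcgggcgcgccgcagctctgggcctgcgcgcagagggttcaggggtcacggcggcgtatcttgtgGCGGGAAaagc
E2f2, first window (chr4:136172024-136172323, plus strand): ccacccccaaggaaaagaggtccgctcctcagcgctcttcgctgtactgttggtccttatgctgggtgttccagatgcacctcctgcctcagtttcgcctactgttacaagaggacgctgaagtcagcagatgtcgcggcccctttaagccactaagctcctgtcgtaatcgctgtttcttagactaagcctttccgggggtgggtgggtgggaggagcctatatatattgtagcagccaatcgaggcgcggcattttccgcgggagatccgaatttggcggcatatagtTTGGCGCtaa
E2f2, second window (chr4:136180532-136180831, plus strand): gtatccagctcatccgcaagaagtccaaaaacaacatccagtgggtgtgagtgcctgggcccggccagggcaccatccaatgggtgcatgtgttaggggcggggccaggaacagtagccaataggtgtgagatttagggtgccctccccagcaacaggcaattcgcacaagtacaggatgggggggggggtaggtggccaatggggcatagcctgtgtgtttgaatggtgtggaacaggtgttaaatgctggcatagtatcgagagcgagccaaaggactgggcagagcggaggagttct
Mcm6 (chr1:128359656-128359955, minus strand): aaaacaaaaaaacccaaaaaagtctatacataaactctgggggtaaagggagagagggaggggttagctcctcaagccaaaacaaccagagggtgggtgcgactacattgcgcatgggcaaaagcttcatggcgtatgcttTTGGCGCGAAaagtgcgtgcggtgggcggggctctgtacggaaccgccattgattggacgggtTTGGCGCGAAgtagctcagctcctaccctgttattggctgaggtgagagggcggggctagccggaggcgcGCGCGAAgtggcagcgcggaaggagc

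The Mcm6 window held 5 matches in 3 stretches, since matches on opposite strands overlapped. The single match of Rrm2 lay 235 bases before the start, those of Pold1 and of the first E2f2 window lay 39 and 40 bases after it, and the windows of Tk1 and the second start of E2f2 held none of these letters. An E2F match was found in 21 of the 34 member windows (61.8%), against 9.57% of all 32851 windows of the same length. The CCAAT letters were in 55.9% of the member windows and 37.4% of all windows. The cell cycle homology region of late cell cycle genes (letters TTTGAA or TTCGAA, both strands) was in 17.6% of the member windows and 19.2% of all windows, whereas among 17 windows of G2/M and mitosis genes it was in 82.4%, an E2F match in 23.5% and the CCAAT letters in 94.1%. The lists nearest to the members also held E2F letters often, in 51.4% of 37 windows of other replication genes and 71.4% of 21 windows of other E2F targets and S phase repair genes. A match describes letters in a window and is not a measured binding site. The size of the difference between the GFP- and GFP+ libraries did not separate members with a match from those without, with a median log2 fold of 0.96 over 19 members with and 0.98 over 10 members without.

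**Figure D1:**
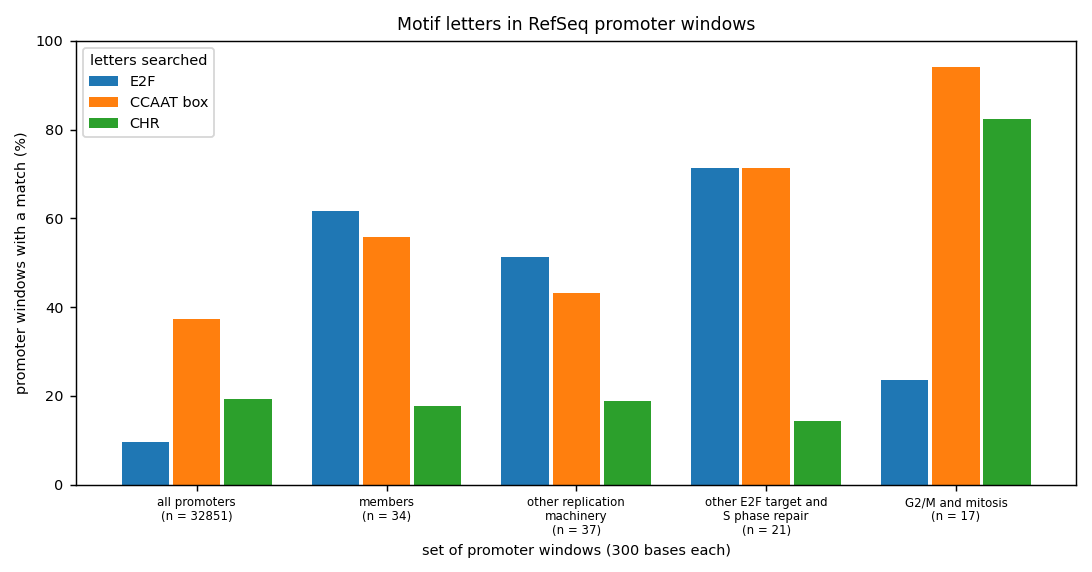
Share of 300-base promoter windows (y axis, percent) that hold E2F letters, a CCAAT box or the cell cycle homology region (CHR), for all promoters and for 4 gene lists (x axis, with the number of windows). E2F letters were in 61.8% of the member windows against 9.57% of all windows, and CHR letters in 17.6% against 82.4% of the G2/M windows.

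All 34 genes were highest in the GFP- Brg1-reexpressed library among the 6 total Treg libraries. Among all genes with at least 5 CPM in a library, 26.6% of 11035 were highest there. The lead over the next library was at least 1.5-fold for 30 members and at least 2-fold for 8, from 1.06-fold for Pold1 over the mosaic Brg1-deleted library to 3.36-fold for Rrm2 over WT. With libraries scaled by their total reads, 32 members were still highest there, Pold1 and E2f2 being the exceptions. The second highest library was the GFP+ library for 17 members, WT for 7, the mosaic Brg1-sufficient library for 6, and the mosaic Brg1-deleted and untreated rKO1 libraries for 2 each. The lowest library was the mosaic Brg1-deleted one for 14 members, beside 19.4% of all genes, and untreated rKO1 for 10, beside 20.1%. It was never the GFP+ library, which was lowest for 8.02% of all genes. The GFP- library could not be the lowest, since all members were highest there. No share of all genes is given for the second place. Summed over the 34 genes, the level was 443 in WT, 347 and 312 in the mosaic Brg1-sufficient and Brg1-deleted libraries, 329 in untreated rKO1, 469 in the GFP+ library and 951 in the GFP- library.

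**Figure D2:**
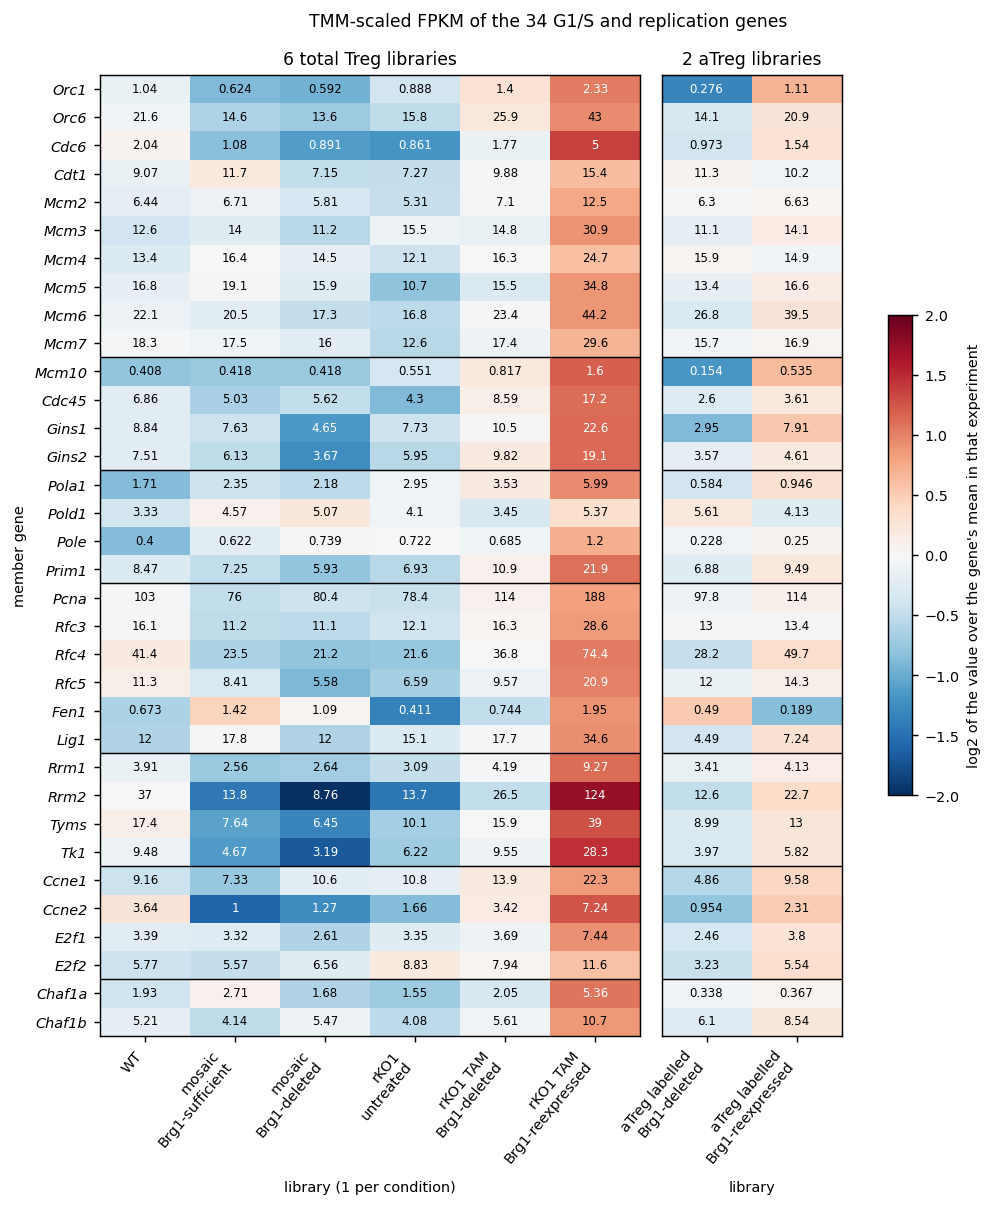
TMM-scaled FPKM (printed in each cell) of the 34 genes (rows, grouped by role, black lines between the groups) in the 6 total Treg and 2 aTreg libraries (columns, 1 library per condition). Colour gives the log2 of the value over the gene's mean in that experiment. The GFP- Brg1-reexpressed column is the highest of the 6 for all 34 genes.

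Between the GFP- and GFP+ libraries, which come from the same TAM-treated condition, the comparison asks how these genes stand in cells that regained Brg1 beside cells that did not. All 34 genes were higher in the GFP- library, with a median of 0.97 on the log2 scale (1.95-fold) over all 34 against 0.06 over all 10310 genes tested, of which 54.7% were higher. Of the 33 members tested, 14 were at least 2-fold higher and none at least 2-fold lower, where 7.11% of all tested genes were called higher and 5.63% lower. At 1.5-fold, 32 members passed, beside 17.1% of all genes. With libraries scaled by total reads all 34 were still higher but 4 passed 2-fold, the member median being 0.62 where the median of all genes was -0.30. The interval of the reads lay above 1 for all 34. The 2-fold line ran through the middle of the list, with E2f1 at 2.02-fold and Prim1 at 2.01-fold just inside it and Cdc45 at 1.998-fold and Mcm10 at 1.96-fold just outside. Fen1 was the member below 5 CPM in both libraries.

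Genes of nucleotide supply differed most. Rrm2, the regulated small subunit of ribonucleotide reductase, which makes deoxyribonucleotides, stood at 37.0 in WT, 13.8 and 8.76 in the mosaic Brg1-sufficient and Brg1-deleted libraries, 13.7 in untreated rKO1, and 26.5 and 124 in the GFP+ and GFP- libraries. The GFP- library was far above all others and WT was the next, so that the difference from the GFP+ library was 4.69-fold (95% counting interval 4.42 to 4.98). Tk1, the cytosolic thymidine kinase of S phase, stood at 9.55 in the GFP+ library and 28.3 in the GFP- library, against 6.22 in untreated rKO1, 9.48 in WT, and 4.67 and 3.19 in the sufficient and deleted mosaic subsets, and differed by 2.96-fold (interval 2.74 to 3.20). Tyms, which makes thymidylate, stood at 17.4 in WT, 7.64 and 6.45 in the mosaic Brg1-sufficient and Brg1-deleted libraries, 10.1 in untreated rKO1, and 15.9 and 39.0 in the GFP+ and GFP- libraries, a difference of 2.45-fold (interval 2.32 to 2.59). For both, WT and the GFP+ library lay close together and above the mosaic and untreated libraries. Rrm1, the large subunit of the reductase, whose level is known to vary less over the cycle than that of Rrm2, stood at 4.19 in the GFP+ library and 9.27 in the GFP- library, against 3.09 in untreated rKO1, 3.91 in WT, and 2.56 and 2.64 in the sufficient and deleted mosaic subsets, and differed by 2.21-fold (interval 2.04 to 2.40). All 4 genes of the group passed 2-fold, with a median log2 fold of 1.43. In the aTreg libraries labelled Brg1-deleted and Brg1-reexpressed, Rrm2 stood at 12.6 and 22.7, Tk1 at 3.97 and 5.82, Tyms at 8.99 and 13.0 and Rrm1 at 3.41 and 4.13, each higher in the second but by less than 2-fold.

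Among the 10 genes of the pre-replication complex and licensing, 3 passed 2-fold (Cdc6, Mcm5 and Mcm3) and the median log2 fold was 0.79. Cdc6, which recruits the MCM hexamer to ORC, stood at 2.04 in WT, 1.08 and 0.891 in the mosaic Brg1-sufficient and Brg1-deleted libraries, 0.861 in untreated rKO1, and 1.77 and 5.0 in the GFP+ and GFP- libraries, a difference of 2.83-fold (interval 2.37 to 3.40) and by far the largest of the group. Cdt1, the other loading factor, which is largely controlled by degradation of its protein in S phase, stood at 9.88 in the GFP+ library and 15.4 in the GFP- library, against 7.27 in untreated rKO1, 9.07 in WT, and 11.7 and 7.15 in the sufficient and deleted mosaic subsets, and differed by 1.56-fold (interval 1.40 to 1.74). Cdt1 was 1 of the members whose second highest library was the mosaic Brg1-sufficient one. Of the ORC subunits in the list, Orc1 stood at 1.04 in WT, 0.624 and 0.592 in the mosaic Brg1-sufficient and Brg1-deleted libraries, 0.888 in untreated rKO1, and 1.40 and 2.33 in the GFP+ and GFP- libraries, with between 46 and 136 reads in these libraries, and differed by 1.67-fold (interval 1.27 to 2.21). Orc6 stood at 25.9 in the GFP+ library and 43.0 in the GFP- library, against 15.8 in untreated rKO1, 21.6 in WT, and 14.6 and 13.6 in the sufficient and deleted mosaic subsets, a difference of 1.66-fold (interval 1.54 to 1.79).

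The 6 subunits of the MCM hexamer, which act in equal numbers in the loaded complex, differed by unequal amounts. Mcm5 stood at 16.8 in WT, 19.1 and 15.9 in the mosaic Brg1-sufficient and Brg1-deleted libraries, 10.7 in untreated rKO1, and 15.5 and 34.8 in the GFP+ and GFP- libraries, and differed by 2.25-fold (interval 2.10 to 2.42). Mcm3 stood at 14.8 in the GFP+ library and 30.9 in the GFP- library, against 15.5 in untreated rKO1, 12.6 in WT, and 14.0 and 11.2 in the sufficient and deleted mosaic subsets, a difference of 2.08-fold (interval 1.93 to 2.25). The smallest difference of the group was that of Mcm4, which stood at 13.4 in WT, 16.4 and 14.5 in the mosaic Brg1-sufficient and Brg1-deleted libraries, 12.1 in untreated rKO1, and 16.3 and 24.7 in the GFP+ and GFP- libraries and differed by 1.52-fold (interval 1.40 to 1.64). Its interval did not overlap those of Mcm3 and Mcm5. Mcm6, Mcm2 and Mcm7 lay between, at 1.89-fold, 1.76-fold and 1.71-fold. Within a library, the transcript levels of the 6 subunits differed by 2.97-fold to 3.54-fold in the total Treg libraries, with Mcm2 the lowest and Mcm6 the highest subunit in each of the 8 libraries. That spread was 4.25-fold in the aTreg library labelled Brg1-deleted and 5.96-fold in that labelled Brg1-reexpressed, where Mcm6 stood at 26.8 and 39.5 and Mcm2 at 6.30 and 6.63.

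The genes that turn the loaded hexamer into the active helicase differed by similar amounts, with a median log2 fold of 0.98 over 4 genes. Gins1, a subunit of the GINS complex, stood at 8.84 in WT, 7.63 and 4.65 in the mosaic Brg1-sufficient and Brg1-deleted libraries, 7.73 in untreated rKO1, and 10.5 and 22.6 in the GFP+ and GFP- libraries, and differed by 2.14-fold (interval 1.86 to 2.48), the only gene of the group past 2-fold. Gins2 stood at 9.82 in the GFP+ library and 19.1 in the GFP- library, against 5.95 in untreated rKO1, 7.51 in WT, and 6.13 and 3.67 in the sufficient and deleted mosaic subsets, a difference of 1.94-fold (interval 1.78 to 2.13), and shares 67.3% of its exon bases with Gse1, so that its level is uncertain. Cdc45 stood at 6.86 in WT, 5.03 and 5.62 in the mosaic Brg1-sufficient and Brg1-deleted libraries, 4.30 in untreated rKO1, and 8.59 and 17.2 in the GFP+ and GFP- libraries. Mcm10, an initiation factor of low level, stood at 0.817 in the GFP+ library and 1.60 in the GFP- library, against 0.551 in untreated rKO1, 0.408 in WT, and 0.418 and 0.418 in the sufficient and deleted mosaic subsets. For all of these the GFP+ library was the second highest.

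Polymerase and primase genes had a median log2 fold of 0.79. Prim1, the catalytic subunit of primase, stood at 8.47 in WT, 7.25 and 5.93 in the mosaic Brg1-sufficient and Brg1-deleted libraries, 6.93 in untreated rKO1, and 10.9 and 21.9 in the GFP+ and GFP- libraries, a difference of 2.01-fold (interval 1.84 to 2.20). Pold1, the catalytic subunit of the lagging strand polymerase delta, had the flattest profile of the list, at 3.45 in the GFP+ library and 5.37 in the GFP- library, against 4.10 in untreated rKO1, 3.33 in WT, and 4.57 and 5.07 in the sufficient and deleted mosaic subsets. The GFP- library was close to the mosaic Brg1-deleted library, and the difference from the GFP+ library was 1.56-fold (interval 1.34 to 1.81). Pola1, of the polymerase that extends primers, stood at 1.71 in WT, 2.35 and 2.18 in the mosaic Brg1-sufficient and Brg1-deleted libraries, 2.95 in untreated rKO1, and 3.53 and 5.99 in the GFP+ and GFP- libraries. Pole, of the leading strand polymerase epsilon, was low in every library, at 0.685 in the GFP+ library and 1.20 in the GFP- library, against 0.722 in untreated rKO1, 0.400 in WT, and 0.622 and 0.739 in the sufficient and deleted mosaic subsets. For Pold1 and Pole the mosaic Brg1-deleted library was the second highest, which held for no other member.

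Pcna, the sliding clamp, was the most abundant member in all 8 libraries. It stood at 103 in WT, 76.0 and 80.4 in the mosaic Brg1-sufficient and Brg1-deleted libraries, 78.4 in untreated rKO1, and 114 and 188 in the GFP+ and GFP- libraries, and differed by 1.65-fold (interval 1.59 to 1.71), among the smaller differences of the list. Rfc5, of the loader that places the clamp, stood at 9.57 in the GFP+ library and 20.9 in the GFP- library, against 6.59 in untreated rKO1, 11.3 in WT, and 8.41 and 5.58 in the sufficient and deleted mosaic subsets, a difference of 2.19-fold (interval 2.01 to 2.38). Rfc4 stood at 41.4 in WT, 23.5 and 21.2 in the mosaic Brg1-sufficient and Brg1-deleted libraries, 21.6 in untreated rKO1, and 36.8 and 74.4 in the GFP+ and GFP- libraries, a difference of 2.02-fold (interval 1.88 to 2.18), and Rfc3 differed by 1.75-fold. For Rfc4 and Rfc5 the WT library, not the GFP+ library, was the second highest. Lig1, the ligase that joins Okazaki fragments, stood at 17.7 in the GFP+ library and 34.6 in the GFP- library, against 15.1 in untreated rKO1, 12.0 in WT, and 17.8 and 12.0 in the sufficient and deleted mosaic subsets, a difference of 1.95-fold (interval 1.83 to 2.08). Fen1, the flap nuclease of Okazaki fragment processing, had between 19 and 79 reads in these libraries and shares 84.2% of its exon bases with Gm10143 and Tmem258, so that reads on shared bases may have been left out and its level and its difference of 2.61-fold (interval 1.72 to 4.06) are uncertain.

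Of the cyclin E and E2F genes, the regulators of the list, Ccne2 and E2f1 passed 2-fold and the median log2 fold was 0.84. Ccne2, which with its kinase CDK2 drives entry into S phase, stood at 3.64 in WT, 1.0 and 1.27 in the mosaic Brg1-sufficient and Brg1-deleted libraries, 1.66 in untreated rKO1, and 3.42 and 7.24 in the GFP+ and GFP- libraries, a difference of 2.12-fold (interval 1.79 to 2.50). WT was about level with the GFP+ library for Ccne2, and the mosaic libraries were the lowest. Ccne1, the other E cyclin, stood at 13.9 in the GFP+ library and 22.3 in the GFP- library, against 10.8 in untreated rKO1, 9.16 in WT, and 7.33 and 10.6 in the sufficient and deleted mosaic subsets, and differed by 1.60-fold (interval 1.45 to 1.77). Of the activator E2Fs, E2f1 stood at 3.39 in WT, 3.32 and 2.61 in the mosaic Brg1-sufficient and Brg1-deleted libraries, 3.35 in untreated rKO1, and 3.69 and 7.44 in the GFP+ and GFP- libraries, a difference of 2.02-fold (interval 1.70 to 2.39). Across the 5 libraries other than GFP-, E2f1 ran between 2.61 and 3.69. E2f2 stood at 7.94 in the GFP+ library and 11.6 in the GFP- library, against 8.83 in untreated rKO1, 5.77 in WT, and 5.57 and 6.56 in the sufficient and deleted mosaic subsets, and its difference of 1.46-fold (interval 1.33 to 1.61) was the smallest of the list. For E2f2 the second highest library was untreated rKO1. The 2 genes of chromatin assembly, subunits of CAF-1, which deposits histones behind the fork, were Chaf1a at 1.93 in WT, 2.71 and 1.68 in the mosaic Brg1-sufficient and Brg1-deleted libraries, 1.55 in untreated rKO1, and 2.05 and 5.36 in the GFP+ and GFP- libraries and Chaf1b at 5.61 in the GFP+ library and 10.7 in the GFP- library, against 4.08 in untreated rKO1, 5.21 in WT, and 4.14 and 5.47 in the sufficient and deleted mosaic subsets. The differences were 2.62-fold (interval 2.32 to 2.96) for Chaf1a, which shares 52.5% of its exon bases with Ubxn6, and 1.91-fold (interval 1.71 to 2.13) for Chaf1b.

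**Figure D3:**
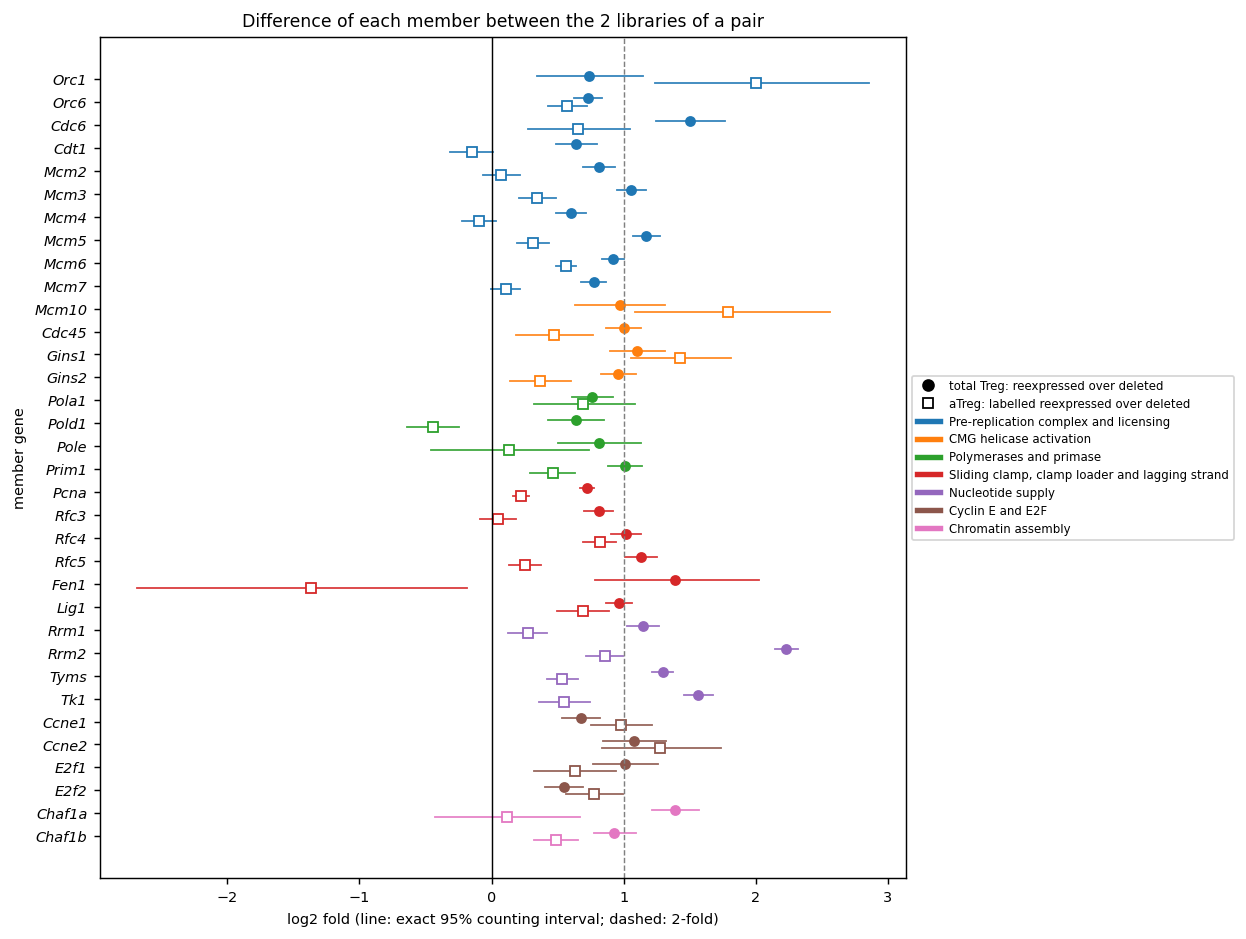
Log2 fold (x axis) of each member (y axis, coloured by role) between the GFP- and GFP+ total Treg libraries (filled circles) and between the aTreg libraries labelled Brg1-reexpressed and Brg1-deleted (open squares), with exact 95% counting intervals as lines and 2-fold dashed. All 34 circles lie above 0, from 0.55 for E2f2 to 2.23 for Rrm2, whereas the squares run from -1.36 for Fen1 to 2.0 for Orc1.

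Between the aTreg libraries, Smarca4 went against the labels, and the header of the library labelled Brg1-deleted names it WT. The members were mostly higher in the library labelled Brg1-reexpressed. Their median log2 fold was 0.48 (1.40-fold) against -0.06 over 10030 genes tested. Of the 29 members tested, 26 were higher and 3 lower, where 45.0% of all tested genes were higher. Members at least 2-fold higher were 2 (Gins1 and Ccne2), beside 4.41% of all tested genes, while 10 were at least 1.5-fold higher beside 10.5%. The counting interval lay above 1 for 25 of the 34 and below 1 for 2. Gins1 stood at 2.95 in the aTreg library labelled Brg1-deleted and 7.91 in that labelled Brg1-reexpressed, 2.68-fold (interval 2.07 to 3.51), and Ccne2 at 0.954 and 2.31, 2.42-fold (interval 1.79 to 3.32). Orc1 and Mcm10 had larger folds, with 0.276 and 1.11 for Orc1 and 0.154 and 0.535 for Mcm10, but stayed below 5 CPM with at most 81 reads. The ranking of the members was not that of the total Treg pair. Ccne1, among the smaller differences there, stood at 4.86 in the aTreg library labelled Brg1-deleted and 9.58 in that labelled Brg1-reexpressed, 1.97-fold (interval 1.68 to 2.31), whereas Mcm4 stood at 15.9 and 14.9 and Mcm2 at 6.30 and 6.63. Pold1 was lower in the library labelled Brg1-reexpressed, with 5.61 and 4.13, a log2 fold of -0.44. Across the 34 genes the log2 folds of the pairs had a Pearson correlation of 0.03 and a Spearman correlation of 0.14, a description over genes that are not independent replicates. Both values include members below 5 CPM in both aTreg libraries, such as Orc1, Mcm10 and Fen1 (log2 fold -1.36 on 21 and 9 reads). They were not computed over the 29 tested members alone, so they do not show how far the tested members share a ranking. The role group with the highest aTreg median was cyclin E and E2F (0.88 on the log2 scale), and the lowest was the clamp group (0.25 over 5 tested).

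In the mosaic females, which hold both subsets side by side, the Brg1-sufficient library was little different from the Brg1-deleted one. The median log2 fold was 0.19 against 0.03 over 10060 tested genes, none of the 30 members tested passed 2-fold beside 4.03% of all genes, and 6 passed 1.5-fold beside 11.8%. Of all 34, 24 were higher and 10 lower in the sufficient library, where 53.2% of all tested genes were higher. The split of the members moved to 19 and 15 when libraries were scaled by total reads. Gins2 (1.67-fold), Gins1 (1.64-fold) and Cdt1 (1.64-fold) were higher by the most. Ccne1 was the lowest, with a log2 fold of -0.53. The Smarca4 difference of this pair, 0.71 on the log2 scale, was about that of the TAM-treated pair, 0.69.

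The GFP+ Brg1-deleted library was itself above untreated rKO1, although both were labelled Brg1-deleted. Apart from TAM, these libraries also differed in Xist (2.85 and 0.0292) and in the Y-linked sum (23.0 and 42.6). The part of these differences was not tested. The median log2 fold was 0.47 (1.38-fold) against 0.00 over 10293 tested genes. Higher were 28 of 32 tested members, beside 50.1% of all tested genes. Past 2-fold were 2 members (Ccne2 and Cdc6), beside 2.16% of all genes, and 10 passed 1.5-fold beside 6.79%. Ccne2 differed by 2.06-fold (interval 1.63 to 2.61) and Cdc6 by 2.05-fold (interval 1.57 to 2.69), with Cdc45 at 2.0-fold and Rrm2 at 1.94-fold. Scaled by total reads the median was 0.38 and none passed 2-fold. Pold1 and E2f2 were lower, by log2 folds of -0.25 and -0.15. This comparison shares the GFP+ library with that of the TAM-treated pair, where it is the lower one.

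Beside WT, untreated rKO1 was lower for most members, with a median log2 fold of -0.34 and 24 of 31 tested members lower. Among all tested genes, 47.2% were higher. Rrm2 (-1.44), Cdc6 (-1.25) and Ccne2 (-1.13) were at least 2-fold lower, where 7.12% of all tested genes were, and none was 2-fold higher, where 8.60% were. At 1.5-fold, 9 members were lower beside 18.1% of all genes and 3 higher beside 18.3%. Of all 34, 26 were lower, against 20 when libraries were scaled by total reads. With that scaling 1 member was at least 2-fold lower and 2 were at least 2-fold higher, and the median moved to -0.04 while the median of all genes moved from -0.05 to 0.26. The 4 polymerase and primase genes had a median of 0.54 in the other direction, Pole being 1.80-fold (interval 1.36 to 2.42) higher and Pola1 1.72-fold (interval 1.48 to 2.02), while Prim1 was lower (log2 fold -0.29). Beside the mosaic Brg1-deleted library, untreated rKO1 had a member median of 0.17, with none of 30 tested members past 2-fold beside 8.16% of all genes called higher, and 5 past 1.5-fold beside 15.5%. Tk1 was the highest there at 1.95-fold, and the median of the pre-replication group was -0.08. Of all 34, 21 were higher and 13 lower, where 46.5% of all tested genes were higher. The split of the members moved to 27 and 7 with scaling by total reads. With that scaling the member median was 0.39 beside 0.18 over all genes, and 1 member passed 2-fold. Under TMM, G2/M and mitosis genes differed by more than the members between these libraries. Their median log2 fold was 0.93, all 17 tested were higher in untreated rKO1 and 8 passed 2-fold, with Mki67 at 1.28.

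The GFP- library also stood above both Brg1-sufficient libraries from mice that were not rKO1. Beside the mosaic Brg1-sufficient library, all 33 members tested were higher, where 47.4% of all tested genes were. Of these members, 24 were at least 2-fold higher (beside 10.8% of all genes) and 31 at least 1.5-fold (beside 21.1%). The median log2 fold was 1.35 (2.56-fold) against -0.05 over 10328 genes. Rrm2 differed by 8.99-fold (interval 8.36 to 9.69), Ccne2 by 7.23-fold (interval 5.65 to 9.40) and Tk1 by 6.05-fold (interval 5.50 to 6.67). At the other end Pold1 differed by 1.18-fold (interval 1.03 to 1.34) and Cdt1 by 1.32-fold (interval 1.19 to 1.46). The order of the role groups was led by nucleotide supply, with a median of 2.47, and by helicase activation, with 1.70. WT, which is also Brg1-sufficient, differed from the mosaic Brg1-sufficient library by a median of 0.22, and Ccne2 (3.64-fold), Rrm2 (2.68-fold), Tyms (2.28-fold) and Tk1 (2.03-fold) were at least 2-fold higher in WT (4 of 31 tested, beside 4.19% of all genes), and 7 passed 1.5-fold (beside 11.7%). These 4 genes thus differed by more than 2-fold between libraries that were neither Brg1-deleted nor TAM-treated. Markers of other cells and of Treg cells differed between these libraries too. All 4 myeloid genes tested were at least 2-fold higher in WT (median log2 fold 1.93), Hba-a1 was 1.73 higher on the log2 scale, and Foxp3 was lower in WT (18.3) than in its mosaic counterpart (134). The paper gives a YFP+ sort gate for Treg cells but describes the mosaic Brg1-sufficient subset as YFP-. These 2 libraries thus differ in the Foxp3 allele, and between them its level cannot be read as Treg content. The mosaic Brg1-deleted cells express YFP-Cre, as WT cells sorted as YFP+ would, and Foxp3 was 61.5 there. The part of these markers in the differences of the members was not tested.

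The size of the difference was set beside other cell cycle genes, since DNA content and label incorporation were not among the measurements used here and give no expected value for entry into S phase. By FACS, the paper reports more proliferation and more apoptosis in the Brg1-reexpressed cells than in the Brg1-deleted ones, a measurement not used here. In the TAM-treated pair, 20 G2/M and mitosis genes had a median log2 fold of 1.60 (3.03-fold) with 19 of 20 past 2-fold, and 33 of the 34 members lay below that median, Rrm2 being the exception. Mki67, a marker of cycling cells, was 1.40 higher on the log2 scale and Top2a, the topoisomerase of late S phase and G2, 1.20. Ccna2 and Ccnb1 led that list with 2.05 and 1.96, and Kif11 was the lowest with 0.20. Another 22 E2F targets and S phase repair genes had a median of 0.64 with 8 past 2-fold, led by E2f8 (2.13) and E2f7 (1.73), the repressor E2Fs that E2F1 is known to induce, with Ung the lowest at -0.16. Of 19 tested G1 cyclins, kinases, inhibitors and pocket proteins, 3 were at least 2-fold higher and 1 lower, with a median of 0.13. Among these Cdkn2a (2.05) and Cdkn2c (1.57), inhibitors of CDK4 and CDK6, were the highest and Myc (-1.06) and E2f5 (-0.92) the lowest. Cdkn2a rested on 24 reads in the GFP+ library and 91 in the GFP- library. Its level was 1.12 and 4.64 there, and 3.97 in untreated rKO1.

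The sum of the 34 genes relative to that of the G2/M genes was 3.47 in the GFP+ library and 2.10 in the GFP- library. It was 3.44 in WT, 4.08 and 5.86 in the mosaic Brg1-sufficient and Brg1-deleted libraries, 3.35 in untreated rKO1, and 7.35 and 3.79 in the aTreg libraries labelled Brg1-deleted and Brg1-reexpressed. Such sums are set largely by abundant genes. Ccnb2 (125) and Ube2c (69.4) were large parts of the G2/M sum of 453 in the GFP- library. Pcna was 80.4 of the member sum of 312 in the mosaic Brg1-deleted library. Between the aTreg libraries the G2/M sum went from 46.4 to 119, Ccnb2 from 10.9 to 39.9 and Ube2c from 4.48 to 19.7. Relative to the mosaic Brg1-deleted library, the member sum was 3.05-fold and the G2/M sum 8.52-fold in the GFP- library, against 1.51-fold and 2.54-fold in the GFP+ library. The G2/M median was also above that of the members in the aTreg pair (1.15 against 0.48) and in the mosaic pair (0.52 against 0.19). Between the GFP+ library and untreated rKO1 this was not so, since the G2/M median of 0.42 lay slightly below the member median of 0.47. The same held between untreated rKO1 and WT (-0.40 against -0.34). The G2/M median was above that of the members for untreated rKO1 over mosaic deleted (0.93 against 0.17). It was also above for WT over mosaic sufficient (0.71 against 0.22) and GFP- over mosaic sufficient (2.41 against 1.35).

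**Figure D4:**
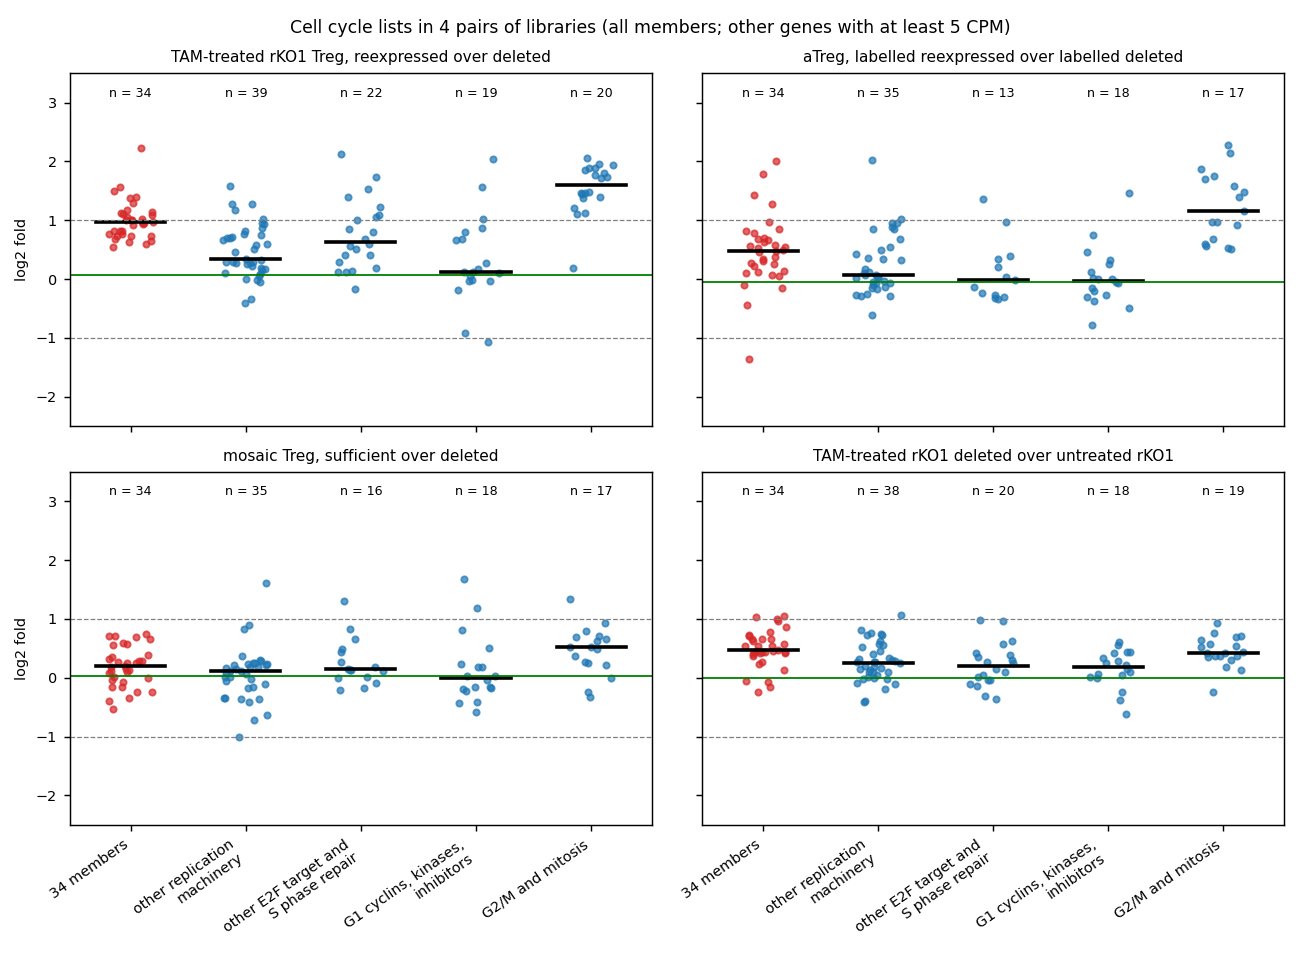
Log2 fold (y axis) of the 34 members (red) and of 4 other cell cycle lists (blue, x axis) in 4 pairs of libraries, for all members and for genes of the other lists with at least 5 CPM, with list medians as black bars, the median of all tested genes as a green line and 2-fold dashed. In the TAM-treated pair the medians are 0.97 for the members and 1.60 for G2/M, and between the GFP+ library and untreated rKO1 the member and G2/M medians are about equal.

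Most of the remaining replication machinery differed less than the members. Of 39 tested genes on a list of 40 further replication genes, 5 were at least 2-fold and 16 at least 1.5-fold higher in the GFP- library and none 2-fold lower, with a median log2 fold of 0.34. Asf1b, a histone chaperone that works with CAF-1, led with 1.59, followed by Ticrr and Gmnn with 1.28 each, and Rrm2b (-0.41), the p53-induced subunit of ribonucleotide reductase, and Orc2 (-0.33) were the lowest. Some subunits of a complex on the list of 34 and on this list had unlike folds and some had like ones. The following genes outside the list of 34 were chosen after their values were seen. Orc3, Orc4 and Orc5 had log2 folds of 0.17, 0.09 and 0.26, beside 0.74 for Orc1 and 0.73 for Orc6. Rfc1, the large subunit of the clamp loader, had 0.05 and Rfc2 0.71, beside 0.81 to 1.13 for Rfc3, Rfc4 and Rfc5. Prim2, the partner of Prim1, had 0.96, beside 1.01 for Prim1.

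Members with a low level did not clearly differ by more than those with a high level. Against the level in the mosaic Brg1-deleted library, which enters neither side of the TAM-treated pair, the log2 fold had a Pearson correlation of -0.21 and a Spearman correlation of -0.30 over 34 genes, which share libraries and are not independent. The 17 genes with the lower level had a median of 1.01 and the 17 with the higher level 0.81, with 9 and 6 genes at least 2-fold higher when no minimum of reads was set.

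**Figure D5:**
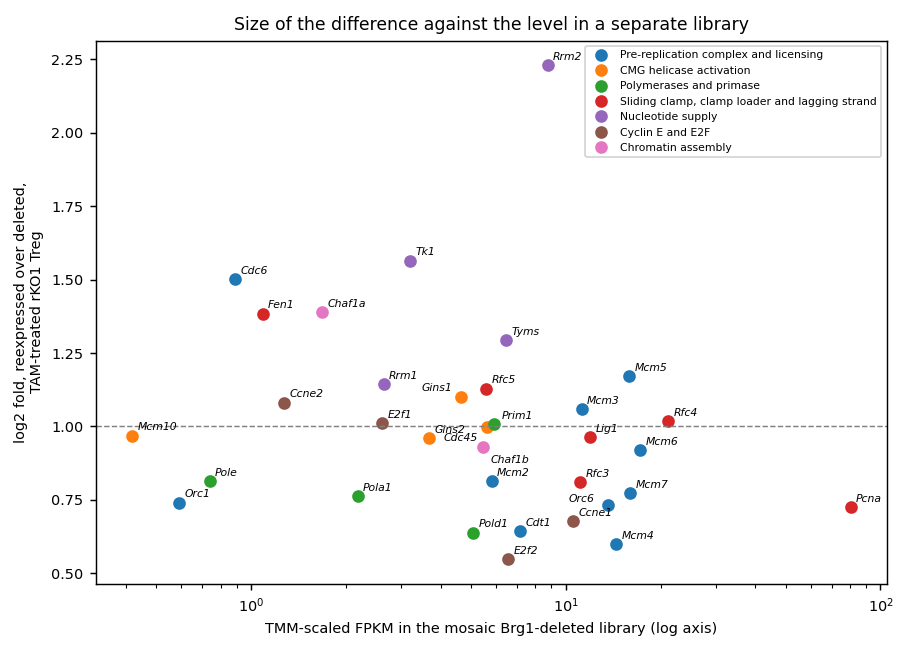
Log2 fold between the GFP- and GFP+ libraries (y axis, 2-fold dashed) against the TMM-scaled FPKM of the same gene in the mosaic Brg1-deleted library (x axis, log scale), 1 point per member, coloured by role. Rrm2 (2.23) stands apart at an intermediate level, and Pcna, the most abundant member, lies at 0.72.

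Markers of other cell types were measured in the same libraries. In the GFP+ and GFP- libraries the summed TMM-scaled FPKM was 671 and 409 over 4 erythroid genes, 79.5 and 33.7 over 6 myeloid genes, 11.4 and 18.4 over 6 B cell genes, 14.5 and 6.30 over 4 plasma cell genes and 11.4 and 7.72 over 4 CD8 T or NK cell genes. Ncr1 of the last list was at 4.33 in the GFP+ library and 0 in the GFP- library, Pax5, Epb42 and Sdc1 were at 0 in the GFP- library, and Tnfrsf17 was at 0 in both. Of these 5 sums, 4 were lower and the B cell sum was higher in the GFP- library. Hba-a1 (668 and 408) made up most of the erythroid sum, and Lyz2 (46.9 and 19.2) most of the myeloid sum. Cd79b, of the B cell list, was at 7.18 and 14.9. Foxp3 stood at 26.5 and 27.4, and the sum of 7 T cell and Treg identity genes was 371 and 554. Ctla4 (69.8 and 200) was the 1 gene of these 7 at least 2-fold higher and weighed heavily in that sum. The median log2 fold of the 7 was 0.12, and Cd4 was slightly lower in the GFP- library (38.6 and 36.5). The mosaic Brg1-sufficient cells were YFP-, so their Foxp3 level cannot be compared with that of the other libraries as Treg content. In the other total Treg libraries, Foxp3 was 18.3 in WT, 134 and 61.5 in the mosaic Brg1-sufficient and Brg1-deleted libraries and 43.5 in untreated rKO1. In the same order the erythroid sum was 509, 153, 135 and 487 and the myeloid sum 302, 90.1, 99.9 and 75.1, so the mosaic libraries had the lowest erythroid sums. Between the aTreg libraries labelled Brg1-deleted and Brg1-reexpressed, the erythroid sum went from 755 to 10608, with Hba-a1 from 746 to 10455 and Klf1 from 1.66 to 8.57. The myeloid sum was 346 and 515, the B cell sum 63.0 and 43.1, the plasma cell sum 9.59 and 34.6 and the CD8 T or NK cell sum 16.9 and 13.5, with Pax5 at 0 in both, Mzb1 and Tnfrsf17 at 0 in the first and Sdc1 at 0 in the second. The summed T cell and Treg identity genes were lower in the aTreg library labelled Brg1-reexpressed, at 605 and 418. Cd3e stood at 231 and 94.3, Cd4 at 58.3 and 42.0 and Foxp3 at 20.5 and 13.6. Of the 7 genes, 2 were higher there, Ikzf2 (43.0 and 50.7) and Ctla4 (72.7 and 74.7). Cd3e was the 1 gene at least 2-fold lower, and the list had a median log2 fold of -0.37. The part of these markers, and of the Y-linked and Xist differences, in the differences of the members was not tested.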

How the data were processed

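FPKM values were deposited by the authors for 53465 gene identifiers in each of 8 libraries (mm10; HISAT2 2.0, StringTie 1.3.3b and featureCounts 1.5.0-p3 per the labels, with no role or order given). Reads were recovered as FPKM times merged exon length (GENCODE M21) times a library total. At the annotated length, 93.6% of 25995 genes with reads in the total Treg libraries and all of 21219 in the aTreg libraries came out whole within 0.05. Cdc45, Chaf1a, Chaf1b and Rfc4 did so at another length, and 191 identifiers were not in the annotation. One read was worth 0.0412 to 0.0603 CPM. The libraries of each experiment were scaled by TMM (trims of 30% and 5%), and folds used a prior of 0.125 reads. The minimum for testing was 5 CPM in 1 of the 2 libraries, and a difference of 2-fold was called. Steps ran in Python 3.11.15 (NumPy 2.4.6, SciPy 1.17.1, pandas 2.3.3) and were tested on simulated data.

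The design assumed counts and the files hold FPKM, so no count test was run, and with 1 library per condition there is no test and no p-value. The members and lists were chosen with earlier results of these data known. All members could be named. Of the other lists, at most the 2 largest and 2 smallest differences of the TAM-treated pair were to be named, with Mki67, Top2a and Smarca4. Orc3, Orc4, Orc5, Rfc1, Rfc2, Prim2, Xist and the single cell type markers were named outside this rule, after their values were seen. The alternatives were scaling by total reads, by median ratios or as deposited, a prior of 2 reads, no minimum of reads and a 1.5-fold limit. Pairwise TMM and leaving out the 8 members that share at least 10% of their exon bases with other genes were added after seeing the data. The header of the aTreg library labelled Brg1-deleted names it WT. Of the 6 erythroid markers first listed, 1 was not matched and 1 is not reported here and was left out of the sum.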

Additional observations from a re-analysis of the deposited data

Results flagged for a closer look

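Between the TAM-treated pair and the mosaic pair, 4 members differed in opposite directions with counting intervals on opposite sides of 1. All were higher with Brg1 reexpressed after TAM, yet in the mosaic females the Brg1-sufficient subset had the lower level. The mosaic log2 fold was -0.53 for Ccne1, -0.40 for Chaf1b, -0.24 for E2f2 and -0.08 for Pcna, beside 0.68, 0.93, 0.55 and 0.72 in the TAM-treated pair. The same was seen for 2 members between the TAM-treated pair and the aTreg pair. The aTreg log2 fold was -1.36 for Fen1, on 9 and 21 reads, and -0.44 for Pold1, beside 1.38 and 0.64. With 1 library per condition these differences between pairs were not tested.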

How the results depend on the processing

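The directions of the member medians held in all 8 comparisons under every alternative, and none reversed. A prior of 2 reads moved none of the 16 summary values by more than its counting error. Scaling by total reads moved the member median of the TAM-treated pair from 0.97 to 0.62 and its 2-fold count from 14 to 4, with the median of all genes moving from 0.06 to -0.30 and the member median above it staying between 0.90 and 0.92. The other medians under total reads were 0.44 for aTreg, 0.062 for the mosaic pair, 0.38 for GFP+ over untreated, -0.042 for untreated over WT, 0.39 for untreated over mosaic deleted, 1.27 for GFP- over mosaic sufficient and 0.27 for WT over mosaic sufficient, and the 2-fold counts were 0 for GFP+ over untreated, 2 for untreated over WT and 1 for untreated over mosaic deleted. With FPKM as deposited, the medians were 0.92 for the TAM-treated pair, 0.44 for aTreg, 0.49 for GFP+ over untreated, 0.25 for untreated over mosaic deleted (count 1), 1.41 for GFP- over mosaic sufficient and 0.32 for WT over mosaic sufficient. With median ratios they were -0.37 for untreated over WT, 0.20 for untreated over mosaic deleted, 1.41 for GFP- over mosaic sufficient and 0.27 for WT over mosaic sufficient. Without a minimum of reads the aTreg count was 4. At 1.5-fold the counts were 32 for the TAM-treated pair, 10 for aTreg, 6 for the mosaic pair, 10 for GFP+ over untreated, 3 for untreated over WT, 5 for untreated over mosaic deleted and 7 for WT over mosaic sufficient. Of the alternatives chosen after seeing the data, leaving out members with shared exon bases gave 0.51 for aTreg, -0.30 for untreated over WT and 0.16 for WT over mosaic sufficient, and pairwise TMM gave 1.38 for GFP- over mosaic sufficient and 0.24 for WT over mosaic sufficient. The cause of these shifts was not tested. No paired analysis was possible because each condition was 1 library and the labels carry no replicate numbers. Depth limits Orc1, Mcm10, Pole, Chaf1a, Cdc6, Ccne2 and Fen1, which were below 5 CPM in both libraries of at least 1 comparison.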
